A study of Mus musculus with 6 samples.

Results

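The 44 collagen genes among the 16759 genes of the deposited RNA-seq table were described in hind leg muscle of trained and untrained mice. They were picked by a rule on the symbol (Col, a number, the letter a and a number), with no limit on expression. Every gene that matched is accounted for here. The rule and the gene lists below were set with earlier results of these data known. They were grouped by the protein they encode into 11 fibrillar, 9 basement membrane, 9 fibril-associated (FACIT), 8 beaded filament, 3 network and 4 transmembrane collagens. Collagens are secreted or membrane proteins in which 3 alpha chains wind into a triple helix. Fibrillar collagens build the tensile fibres of tendon and of the sheaths around muscle fibres, FACIT collagens decorate those fibres, and type IV collagen is the sheet in the basement membrane that coats every muscle fibre and capillary. Type VI collagen forms beaded filaments between the basement membrane and the fibrous matrix. In muscle, fibroblasts, tendon cells, vessel cells and Schwann cells are the usual sources of collagen.

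RNA was taken from 3 control (Con) and 3 exercise (EX) mice, 1 library per mouse. All were male C57BL/6J mice, aged 8 weeks when the experiment began. EX mice ran on an electric treadmill for 60 min a day, 5 days a week, for 6 weeks (22 km per mouse), and the muscle was taken 24 h after their final run. Con mice had no treadmill training, and the time of their killing is not given in the sources used here. The mice were perfused with phosphate-buffered saline, fat between the muscles was taken away, and a piece about as large as a soybean was used, without a statement of which muscle of the leg it came from. In such bulk samples, fewer cells of a type and less RNA per cell cannot be told apart.

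Counts on genes ranged from 13845362 to 15585048 in the Con libraries and from 16080487 to 16240431 in the EX libraries. Levels are given as CPM (the count after adjusting each library's size with its TMM factor, for comparing libraries) or as FPKM (the authors' fragments per kilobase of transcript scaled to library size, for comparing genes of different length). A count of 0 allows up to 3 counts, or 0.188 to 0.214 CPM, for counting error only. The tissue carried its defining genes, since the 8 muscle fibre markers together reached 149520 to 155680 CPM in Con and 160490 to 168140 CPM in EX libraries. With edgeR's quasi-likelihood test over the whole table, 1012 genes (6.04%) were higher and 993 (5.93%) were lower in EX at a Benjamini-Hochberg adjusted p-value under 0.05, the threshold used throughout. The median log2 fold change of all genes was -0.00264.

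Collagen transcripts were a small and uneven part of the muscle transcriptome. They took 0.168% to 0.174% of the counts in Con libraries and 0.197% to 0.202% in EX libraries. By mean FPKM over the 6 libraries, 10 of the 44 genes reached 10 FPKM, another 10 lay between 1 and 10 FPKM, and 24 lay under 1 FPKM. The order was led by Col3a1, the chain of type III collagen, followed by Col1a2, Col4a1, Col4a2, Col6a1, Col6a2, Col1a1 and Col7a1. The first 3 held 40.9% to 47.0% of all collagen FPKM in a library, and these 8 held 78.6% to 81.4%. Col3a1 and Col4a1 lay close together in Con libraries and far apart in EX libraries. Con libraries had 44.4 to 48.5 FPKM of Col3a1 and 44.0 to 44.4 FPKM of Col4a1, whereas EX libraries had 74.6 to 78.0 FPKM of Col3a1 and 40.5 to 41.7 FPKM of Col4a1.

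Of the 44 collagen genes, 14 rose and 4 fell in EX muscle, and 26 did not pass the test. That is 31.8% of the members higher and 9.09% lower, read against 6.04% and 5.93% of all genes tested. The CPM of all 3 EX libraries lay above those of all 3 Con libraries for 16 collagens and below them for 6, where 13.4% and 13.3% of all genes did so. Of the 18 called genes, Col20a1 alone had groups that overlapped. The median log2 fold change of the 44 genes was 0.13, with 25 positive and 19 negative values, and it differed by class. It was 0.41 for fibrillar, 0.19 for FACIT, 0.18 for beaded filament, -0.09 for basement membrane, -0.11 for transmembrane and -0.21 for network collagens. Over the alternatives each kept its sign, but the sizes moved, from 0.26 to 0.51 for fibrillar, 0.07 to 0.25 for FACIT, 0.01 to 0.27 for beaded filament, -0.18 to -0.04 for basement membrane, -0.23 to -0.02 for transmembrane and -0.36 to -0.06 for network collagens. By level, 7 of 10 members were called at or above 10 FPKM, 6 of 10 between 1 and 10 FPKM and 5 of 24 under 1 FPKM. Calls depended on level over the whole table too, at 21.3%, 12.8% and 3.13% of all genes in these ranges.

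**Figure D1:**
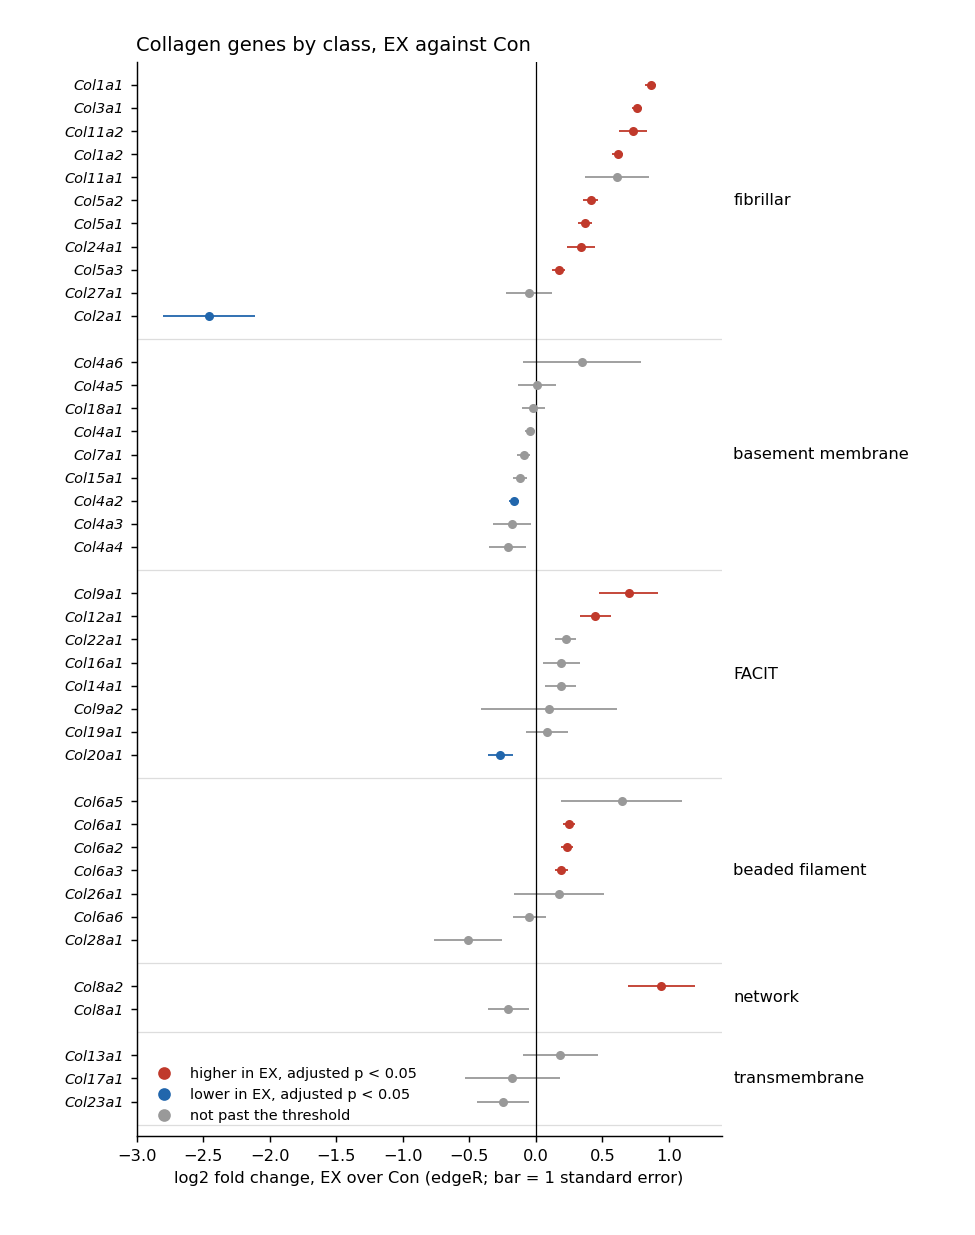
Log2 fold change of EX over Con (horizontal axis, edgeR) for the 40 collagen genes with at least 30 counts in all, grouped by class, with bars of 1 standard error and colours for the adjusted p-value under 0.05. The 8 called fibrillar genes that rose lie between 0.17 and 0.86, Col2a1 alone lies near -2.46, and 7 of the 9 basement membrane genes lie left of 0 with values down to -0.21.

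RefSeq promoters (GRCm38.p6, 250 bases before to 50 after the gene start) were found for 35 of the 44 collagens. Those of the 4 genes with the highest FPKM are shown, because they hold fibrillar chains that rose beside the type IV pair, whose chains are read from opposite strands of chromosome 8. They are Col1a2 (chr6:4505368-4505667, plus strand), Col3a1 (chr1:45311288-45311587, plus strand), Col4a1 (chr8:11312777-11313076, minus strand) and Col4a2 (chr8:11312555-11312854, plus strand). Capitals mark the letters TATAAA, which read as TTTATA when the motif is on the other strand. They also mark the letters CCAAT, which then read as ATTGG, and the letters GGGCGG, which then read as CCGCCC. In these windows the matches do not overlap each other. Each is written 5′ to 3′ along the gene.
Col1a2: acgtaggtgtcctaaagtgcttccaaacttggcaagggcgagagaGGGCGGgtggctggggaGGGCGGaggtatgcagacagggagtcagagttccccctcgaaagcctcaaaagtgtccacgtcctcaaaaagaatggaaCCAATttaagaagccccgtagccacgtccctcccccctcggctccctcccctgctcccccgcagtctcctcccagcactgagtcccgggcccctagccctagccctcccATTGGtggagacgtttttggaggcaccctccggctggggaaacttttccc
Col3a1: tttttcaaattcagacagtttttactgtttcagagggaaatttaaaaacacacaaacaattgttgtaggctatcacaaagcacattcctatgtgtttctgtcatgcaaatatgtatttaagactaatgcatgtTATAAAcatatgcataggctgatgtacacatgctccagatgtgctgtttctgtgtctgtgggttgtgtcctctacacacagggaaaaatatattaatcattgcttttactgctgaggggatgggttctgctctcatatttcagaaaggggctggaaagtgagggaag
Col4a1: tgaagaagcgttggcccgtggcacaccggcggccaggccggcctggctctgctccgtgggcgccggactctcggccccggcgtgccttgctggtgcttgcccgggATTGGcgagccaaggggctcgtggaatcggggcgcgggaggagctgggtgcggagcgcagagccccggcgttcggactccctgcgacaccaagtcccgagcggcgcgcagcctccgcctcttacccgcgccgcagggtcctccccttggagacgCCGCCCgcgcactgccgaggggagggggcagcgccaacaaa
Col4a2: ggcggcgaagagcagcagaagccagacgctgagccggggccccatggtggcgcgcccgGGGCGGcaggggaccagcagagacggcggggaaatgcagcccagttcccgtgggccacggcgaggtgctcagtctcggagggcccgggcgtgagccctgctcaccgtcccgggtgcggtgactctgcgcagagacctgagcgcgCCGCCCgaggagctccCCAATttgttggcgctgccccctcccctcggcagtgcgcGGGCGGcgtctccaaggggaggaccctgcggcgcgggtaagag
The windows of Col4a1 and Col4a2 share 78 bases in opposite orientation. The GC content was 74% and 73.7% for Col4a1 and Col4a2, 61.0% for Col1a2 and 37.7% for Col3a1, with a median of 52.7% over all promoters. TATAAA was in 13.6%, CCAAT in 37.4% and GGGCGG in 35.7% of 32851 promoters, and in 5, 13 and 22 of the 35 collagen promoters. These matches describe letters in a window and are no evidence of binding.

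The fibrillar collagens held the largest increases among abundant members. Type I collagen, the main protein of tendon and of the tough outer muscle sheaths, is built of chains from Col1a1 (Entrez gene 12842) and Col1a2 (12843). Col1a1 was at 89.1, 84.5 and 85.6 CPM in Con replicates 1 to 3 and at 156, 158 and 157 CPM in EX replicates 1 to 3. The EX libraries were nearly alike and stood far above every Con library. It rose 1.82-fold (log2 fold change 0.86, SE 0.04, adjusted p = 9.17e-21). Col1a2 was at 169, 174 and 179 CPM in Con and at 260.5, 274 and 265 CPM in EX libraries, again with no overlap. It rose 1.53-fold (0.61, SE 0.04, adjusted p = 1.05e-16). The chains did not rise equally. Per length, Col1a1 stood at 0.434 ± 0.0228 of Col1a2 in Con and at 0.515 ± 0.0106 in EX libraries (SD, n = 3 each), and the groups did not overlap.

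Type III collagen, the thin extensible fibre that lies with type I in the inner muscle sheaths, is a triplet of Col3a1 chains (Entrez gene 12825). Its CPM was 229, 242 and 248 in Con and 398, 403 and 416 in EX libraries. Every EX library was far above every Con library, and the rise was 1.69-fold (0.76, SE 0.04, adjusted p = 1.13e-20). The FPKM ratio of Col3a1 to Col1a1 overlapped between groups, at 2.97 ± 0.187 in Con and 2.76 ± 0.0567 in EX.

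Type V collagen sits in the core of type I fibrils and sets their width. Its chains Col5a1 (Entrez gene 12831), Col5a2 (12832) and Col5a3 (53867) all rose. Col5a1 went from 44.1, 41.5 and 42.5 CPM in Con to 52.8, 55.5 and 56.8 CPM in EX (0.37, SE 0.05, adjusted p = 1.15e-06). Col5a2 went from 34.0, 31.8 and 34.4 to 43.4, 45.8 and 44.0 CPM (0.41, SE 0.06, adjusted p = 4.62e-07). Neither gene had overlapping groups, Col5a2 lies next to Col3a1 on chromosome 1, and the Col5a1 to Col5a2 FPKM ratio overlapped between groups at about unity, with 1.01 ± 0.0310 in Con and 0.972 ± 0.0358 in EX. Col5a3 rose least of the called fibrillar genes, from 54.3, 59.2 and 59.7 to 64.6, 65.9 and 64.7 CPM (0.17, SE 0.05, adjusted p = 0.0175). The call for Col5a3 was lost in 9 of 14 alternatives, among them DESeq2 and each fit without Con replicate 1 or any single EX library.

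Type XI collagen, best known from cartilage fibrils, was carried here mainly by Col11a2 (Entrez gene 12815). It stood at 6.90, 7.04 and 8.08 CPM in Con and at 12, 12.9 and 11.6 CPM in EX. The groups were well apart, and the rise was 1.66-fold (0.73, SE 0.10, adjusted p = 8.02e-07). In FPKM it stood at 6.05 ± 0.902 times Col11a1 in Con and 7.15 ± 1.25 times in EX, with overlapping groups. The partner chain Col11a1 (12814) had 16, 22 and 20 counts in Con and 26, 28 and 38 counts in EX. All EX values were above all Con values, and with a log2 fold change of 0.61 (SE 0.24, adjusted p = 0.0961) it did not pass the test. Col24a1 (71355), a minor fibrillar collagen, rose from 9.18, 7.73 and 9.08 to 11.8, 10.98 and 9.99 CPM (0.34, SE 0.11, adjusted p = 0.0256). This call was lost with DESeq2 and limma, and when Con replicate 2 or either of EX replicates 1 and 2 was left out. Col27a1 was at 2.85 to 3.26 CPM in Con and 2.91 to 3.11 CPM in EX, with overlapping groups and a 95% interval of its log2 fold change from -0.38 to 0.28.

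Col2a1 (Entrez gene 12824), the main collagen of cartilage, was the single fibrillar gene that fell. It had 31, 24 and 26 counts in Con and 6, 5 and 4 counts in EX libraries, or 1.52 to 2.21 CPM against 0.253 to 0.377 CPM. The groups were far apart at this low level, and the log2 fold change was -2.46 (SE 0.35, adjusted p = 5.57e-07). Col10a1 (12813), the network collagen of growth cartilage, moved the same way on fewer counts. It had 5, 2 and 7 counts in Con and 0, 1 and 0 counts in EX, a Con to EX ratio of 14.5 with a 95% counting interval of 2.21 to 614.87 (adjusted p = 0.0247). Its EX values are under the floor of 3 counts, and the call was lost in 8 of 12 alternatives.

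Among 12 listed markers of bone and cartilage, 8 were in the table and 1 fell, where 5.93% of all genes were lower. The difference of this list from that share was not tested. Ibsp, a protein of mineralising bone, had 26, 32 and 30 counts in Con and 0, 1 and 2 counts in EX (adjusted p = 1.69e-10). The summed level of the 8 markers was 3.49 to 4.13 CPM in Con and 1.63 to 2.02 CPM in EX libraries. Without Ibsp, the other 7 summed to 1.64 to 2.25 CPM in Con and 1.63 to 1.90 CPM in EX, with overlapping groups and with 4 positive and 3 negative log2 fold changes. Acan, the cartilage proteoglycan, had 4, 1 and 5 counts in Con and 0, 0 and 1 counts in EX, and Sost was at 0 in EX and Matn3 at 0 in Con, each under 3 counts a library in the other group. Ibsp thus moved in the same direction as Col2a1 and Col10a1, and the part of bone or cartilage cells in those differences was not tested.

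**Figure D2:**
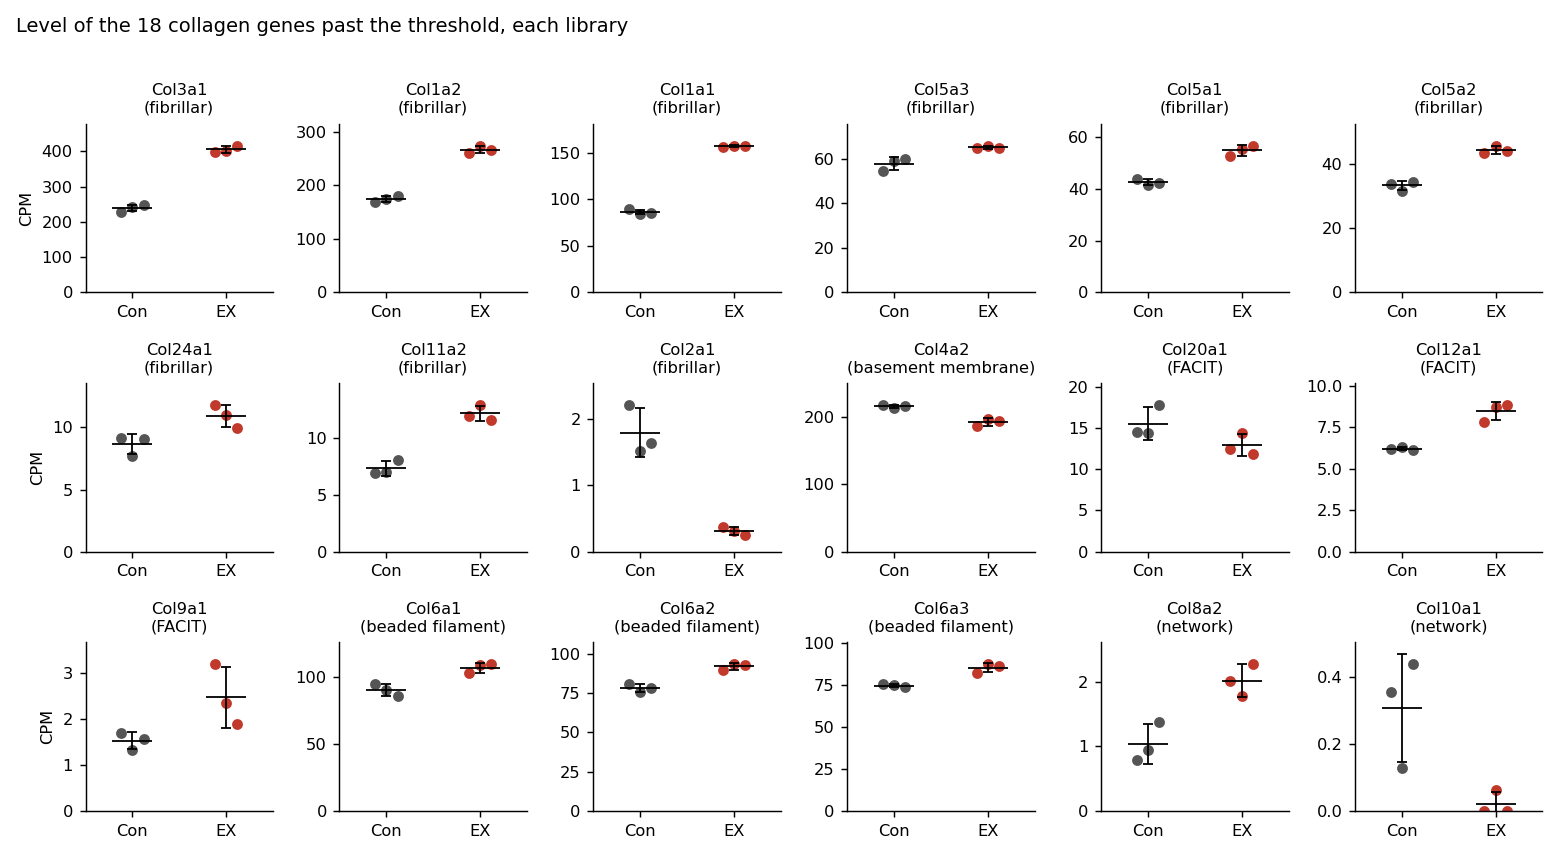
CPM of each of the 18 called collagen genes (vertical axes, linear and starting at 0) in the 3 Con (grey) and 3 EX (red) libraries, with lines at the mean and bars of 1 SD. EX points lie above all Con points in 14 panels and below them for Col2a1, Col4a2 and Col10a1, and the groups overlap for Col20a1.

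Of the 9 basement membrane collagens, 0 rose in edgeR, DESeq2 or limma on FPKM, 1 fell in edgeR, and at an unadjusted p-value under 0.05 the counts were 0 higher and 2 lower. Of all genes, 6.04% were higher and 5.93% lower at the adjusted threshold. At the unadjusted p-value, 1995 of the 16759 genes were higher and 1950 lower. The counts of this class are near these backgrounds, and the difference from the fibrillar class was not tested. The sheet-forming chains of type IV collagen in vessels and around muscle fibres are encoded by Col4a1 (Entrez gene 12826) and Col4a2 (12827), a head-to-head pair. Col4a2 had 218, 213 and 217 CPM in Con and 186, 197 and 194 CPM in EX. All EX libraries were below all Con libraries, and the fall was small (log2 fold change -0.16, SE 0.04, adjusted p = 0.0026). Without EX replicate 1, its lowest library, the adjusted p-value was 0.0567. Col4a1 was at 273, 271 and 272 CPM in Con and at 258, 270.1 and 265 CPM in EX. These values too were all lower in EX, but the highest EX library (270.06 CPM) lay just under the lowest Con library (271.08 CPM). The log2 fold change of Col4a1 was -0.04 (95% interval -0.12 to 0.03, adjusted p = 0.546). The FPKM ratio of Col4a1 to Col4a2 was 1.23 ± 0.0100 in Con and 1.34 ± 0.0105 in EX, without overlap.

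The other type IV chains were far below this pair, under 1 FPKM in both groups, and none passed the test. The chains of kidney-type networks, Col4a3, Col4a4 and Col4a5, had log2 fold changes of -0.18, -0.21 and 0.01, and Col4a6, at 0.214 to 1.21 CPM, had 0.35 with a standard error of 0.44. Col7a1, known for the fibrils that anchor skin, was eighth in FPKM order at 112 to 132 CPM in Con and 108 to 114 CPM in EX. Its groups overlapped, with a log2 fold change of -0.09 and a 95% interval of -0.19 to 0.00. The vessel-associated collagens Col15a1 and Col18a1, whose ends can be released as the fragments restin and endostatin, gave -0.12 (95% interval -0.23 to -0.01, adjusted p = 0.169) and -0.02 (-0.19 to 0.15). Markers of the cells that carry a basement membrane are given beside these values, with 6.04% of all genes higher and 5.93% lower as the background. Of 10 endothelial markers, 4 were lower and 1 higher, and their sum was 799.56 to 808.55 CPM in Con and 704.39 to 724.47 CPM in EX. Of 9 smooth muscle and pericyte markers, 6 were lower and 1 higher, with a sum of 1332 to 1361 CPM against 1118 to 1149 CPM. Schwann cell markers, another source of basement membrane, had 5 lower of 8, which were 3 with DESeq2 and with limma on FPKM. The endothelial marker that was higher, Cldn5, and the smooth muscle marker that was higher, Acta2, were not called by DESeq2 or limma. The part of these cells in the collagen values was not tested.

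The balance of the classes differed between the groups. Fibrillar genes together were at 124 ± 3.74 FPKM in Con and 186 ± 1.88 FPKM in EX (SD, n = 3), and basement membrane genes at 110.3 ± 2.25 and 99.2 ± 2.11 FPKM. Neither class had overlapping groups. EX to Con folds run slightly lower in FPKM than in CPM. In CPM, the EX to Con ratio of the mean sums was 0.94 for basement membrane and 1.56 for fibrillar genes. As a share of all collagen FPKM, the fibrillar class went from 39.7% to 41.0% in Con to 50.9% to 51.5% in EX, and the basement membrane class from 36.0% to 36.4% to 27.0% to 27.7%. Shares are tied to each other, so the larger fibrillar sum lowers every other share. Col1a1 stood at 0.356 ± 0.00843 of Col4a1 per length in Con and at 0.667 ± 0.0124 in EX.

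**Figure D3:**
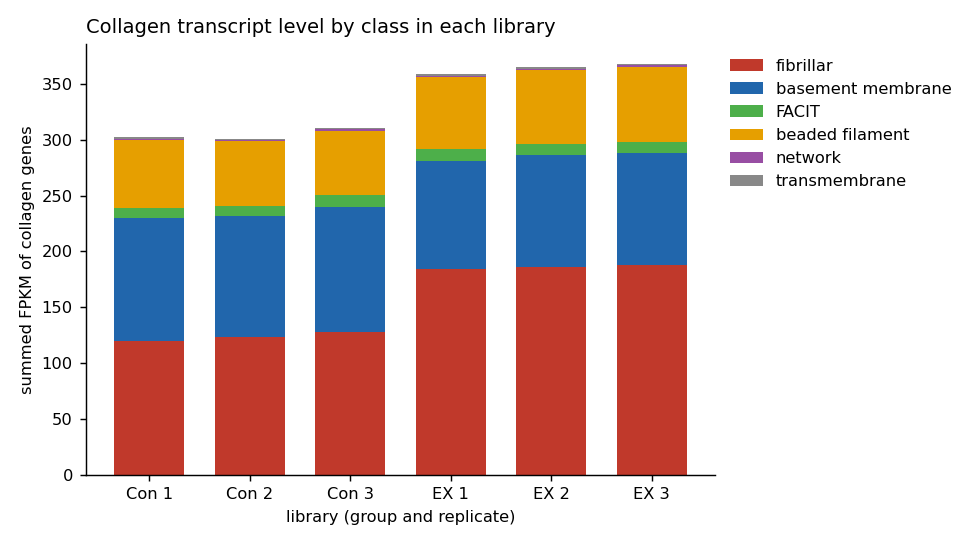
Summed FPKM of the collagen genes (vertical axis, starting at 0) in each library, stacked by class. The fibrillar segment is 120.06 to 127.52 FPKM in Con and 184.49 to 188.19 FPKM in EX libraries, the basement membrane segment is smaller in all 3 EX libraries, and the network and transmembrane segments are barely visible.

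Of the beaded filament collagens, the type VI trio rose. Type VI collagen is assembled from Col6a1 (Entrez gene 12833), Col6a2 (12834) and Col6a3 (12835). Col6a1 was at 94.5, 89.9 and 85.7 CPM in Con and at 103, 109 and 109 CPM in EX (0.25, SE 0.05, adjusted p = 9.07e-05). Col6a2 went from 80.5, 75.7 and 78.0 to 89.5, 93.3 and 92.7 CPM (0.23, SE 0.05, adjusted p = 2.20e-04). Col6a3 went from 75.2, 74.8 and 73.3 to 82.0, 87.2 and 85.8 CPM (0.19, SE 0.05, adjusted p = 0.00307). No EX library overlapped a Con library for any of the trio, and the lowest EX value was EX replicate 1 each time. Per length the chains kept their proportions within the spread of the libraries, with Col6a1 at 1.11 ± 0.0441 of Col6a2 in Con and 1.12 ± 0.0148 in EX, and Col6a3 at 0.361 ± 0.0120 and 0.349 ± 0.00434 of Col6a1. The calls held in every fit on counts, but limma called Col6a1 and Col6a2 on log2(FPKM + 0.1), Col6a2 alone on log2(FPKM + 1) and none of the trio on log2(TPM + 0.1). Col6a1 and Col6a2 are neighbours on chromosome 10.

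The alternative type VI chains were rare. Col6a5 had 6, 8.05 and 5 estimated counts in Con and 10, 4.97 and 16 in EX, with a log2 fold change of 0.64 (SE 0.45, adjusted p = 0.433). EX replicate 3 was the highest, EX replicate 2 lay within the Con range in CPM, and the groups overlapped. Col6a6 was at 6.62 to 7.14 CPM in Con and 6.01 to 7.60 CPM in EX (-0.05). The counts of Col6a5 and Col6a6, which lie side by side on chromosome 9 with Col6a4, were not whole in 33.3% of the libraries, so their values are uncertain wherever reads match more than 1 gene. Col6a4 had 4 counts in all 6 libraries together, and no fold is given. Col26a1 was at 0.570 to 0.925 CPM in Con and 0.817 to 0.949 CPM in EX. Col28a1, a collagen of nerve sheaths, was at 1.28 to 1.82 CPM in Con and 1.01 to 1.27 CPM in EX without overlap, and did not pass the test (-0.51, SE 0.26, adjusted p = 0.226).

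FACIT collagens lay at modest levels, and of the 9 members 2 rose and 1 fell with edgeR. Of all genes, 6.04% were higher and 5.93% lower. DESeq2 and limma, on each scale, called 0 FACIT genes in either direction. Col12a1 (Entrez gene 12816), which bridges type I fibrils in tendon and muscle sheaths, was at 6.19, 6.34 and 6.14 CPM in Con and at 7.85, 8.75 and 8.86 CPM in EX. The Con values were close together and below every EX value (0.45, SE 0.12, adjusted p = 0.00565), but DESeq2 and limma did not call it, and without EX replicate 3 the adjusted p-value was 0.0501. Col9a1 (12839), a partner of type II collagen in cartilage, was at 1.71, 1.33 and 1.57 CPM in Con and at 3.20, 2.35 and 1.90 CPM in EX. It rose while Col2a1 fell (0.70, SE 0.22, adjusted p = 0.0304), and its call was lost with DESeq2 and limma, and without any single library other than EX replicate 3. The other type IX chains were near the floor, with Col9a2 at 0.190 to 0.628 CPM and Col9a3 at 0.127 to 0.641 CPM over the 6 libraries.

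Col20a1 (Entrez gene 73368) was at 14.5, 14.3 and 17.8 CPM in Con and at 12.5, 14.4 and 11.8 CPM in EX. Its EX replicate 2 lay within the Con range, and the call sat at the threshold (-0.27, SE 0.09, adjusted p = 0.0494) and held in 2 of 14 alternatives. Col22a1, a collagen of the junction between muscle and tendon, was the most abundant FACIT gene. It had 15.6, 16.9 and 18.7 CPM in Con and 21.2, 19.0 and 19.8 CPM in EX. The groups did not overlap, and the test just missed the threshold (0.23, SE 0.08, adjusted p = 0.0531), passing it without Con replicate 3 (0.0204). Col14a1 and Col16a1 gave 0.19 each with overlapping groups, and Col19a1 gave 0.08.

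Of the short-chain network collagens, Col8a2 (Entrez gene 329941) rose from 0.783, 0.951 and 1.38 CPM in Con to 2.01, 1.78 and 2.28 CPM in EX. The groups did not overlap (0.94, SE 0.25, adjusted p = 0.00744), and the call was lost with DESeq2 and limma, and when either of Con replicates 1 and 2 or of EX replicates 1 and 3 was left out. Its partner chain Col8a1, at 4.50 to 4.88 CPM in Con and 3.24 to 4.93 CPM in EX, was the more abundant and did not pass the test (-0.21, adjusted p = 0.455). The 4 transmembrane collagens, which sit in the cell surface, gave no call in either direction. All 4 were under 1 FPKM, where 3.13% of all genes were called, so the absence of calls is near the background. Col13a1, found at the neuromuscular junction, was at 0.887 to 1.35 CPM in Con and 0.886 to 1.52 CPM in EX. Col23a1 was at 2.35 to 2.44 CPM in Con and 1.90 to 2.09 CPM in EX, all lower in EX (-0.25, adjusted p = 0.496). Col17a1 and Col25a1 stayed under 1 CPM in all libraries, with log2 fold changes of -0.18 and -0.05. For this class, 0 genes also passed at an unadjusted p-value under 0.05, with DESeq2 and with limma on FPKM. Over all 16759 genes, 1995 were higher and 1950 lower at that unadjusted p-value.

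Of 53 genes that modify, fold, cleave, crosslink or bind collagen, all in the table, 7 rose and 2 fell, with a median log2 fold change of 0.04. That is 13.2% higher and 3.77% lower, read against 6.04% and 5.93% of all genes tested. Among 14 hydroxylation and glycosylation genes, which act on new chains in the endoplasmic reticulum, 0 rose and Colgalt2, a transferase that adds galactose to collagen, fell. At an unadjusted p-value under 0.05, 1 of these was higher and 2 were lower, and DESeq2 called 0 in either direction. Among 14 folding and export genes, 2 rose: Serpinh1, the collagen chaperone HSP47 (0.24), and Tmem38b, an ion channel of the endoplasmic reticulum (0.17). Limma called neither, and Tmem38b was also lost with DESeq2 and when Con replicate 1 or either of EX replicates 1 and 3 was left out. Among 8 genes of propeptide cleavage, Pcolce, an enhancer of the enzyme that trims procollagen, rose (0.27), though not with limma on TPM. Among 10 receptor and uptake genes, 3 rose, namely Sparc, a collagen-binding matrix protein (0.28), Mrc2, an endocytic collagen receptor, and Ctsk, a protease that degrades collagen.

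The largest change among the pathway genes past the threshold was in Lox, the enzyme that crosslinks fibrillar collagen. It was at 8.26, 7.23 and 10.1 CPM in Con and at 14.6, 12.1 and 13.6 CPM in EX, without overlap (0.65, SE 0.11, adjusted p = 1.08e-05). Limma did not call Lox on any scale, while DESeq2 and each fit with 1 library left out did. Ctsk went from 6.69, 5.96 and 5.45 to 8.23, 7.11 and 8.79 CPM (0.42, SE 0.12, adjusted p = 0.0155). Mrc2 went from 11.9, 13.4 and 12.5 to 14.3, 18.4 and 16.8 CPM (0.39, SE 0.09, adjusted p = 0.00183). Both were higher in all 3 EX libraries. Limma called neither, Mrc2 was also lost without EX replicate 2, and Ctsk with DESeq2 and when either of Con replicates 2 and 3 or of EX replicates 1 and 3 was left out. Sparc was called in all 14 alternatives. Colgalt2 was at 8.45 to 8.54 CPM in Con and 6.14 to 6.79 CPM in EX (-0.37, SE 0.11, adjusted p = 0.0212). Tgm2, a transglutaminase of vessel wall and matrix, was at 129 to 141 CPM in Con and 119 to 125 CPM in EX (-0.13, SE 0.04, adjusted p = 0.0349). The 2 falls were lost without any single library other than Con replicate 3, and DESeq2 called 0 of them.

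**Figure D4:**
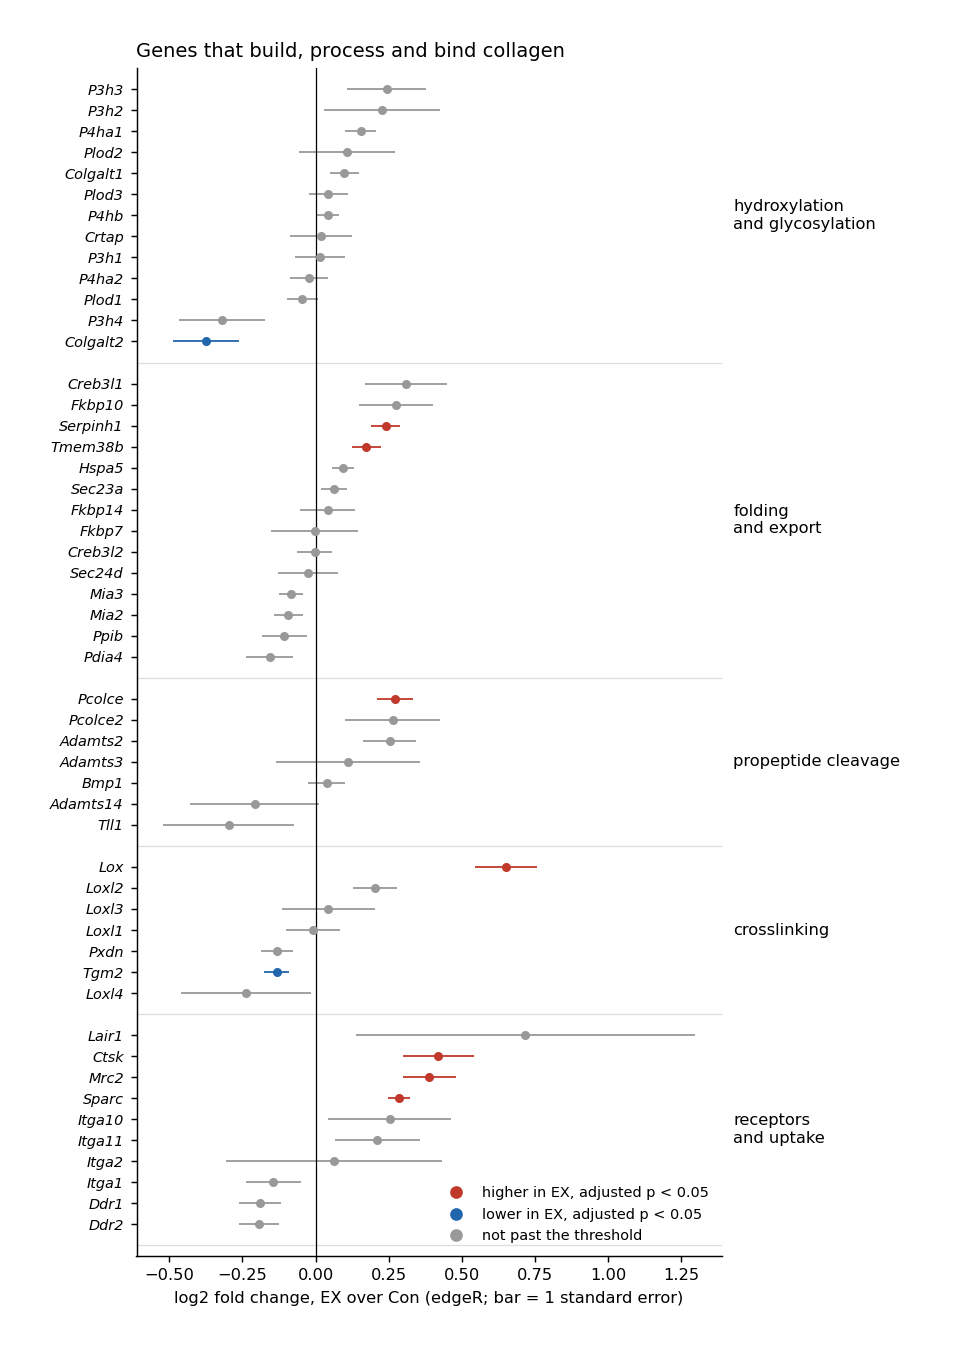
Log2 fold change of EX over Con (horizontal axis, edgeR, bars of 1 standard error) for genes that build, process and bind collagen, with at least 30 counts in all, in 5 groups by role. Among the genes that rose, Lox is at 0.65 and the other 6 lie between 0.17 and 0.42, Lair1, at 0.72 with a wide bar, did not pass the test, and the prolyl and lysyl hydroxylases are all grey.

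Marker genes of the cells that make collagen did not move together. Of 8 tendon markers, 3 rose (Thbs4, Fmod and Tnmd) and 0 fell, where 6.04% of all genes were higher, and the other 5 did not pass the test, 4 of them with log2 fold changes between -0.10 and 0.07. The 8 had a sum of 182 to 202 CPM in Con and 259 to 274 CPM in EX. Fmod, a fibril-binding proteoglycan, was at 59.2, 49.5 and 49.0 CPM in Con and at 82.8, 96.4 and 93.2 CPM in EX (0.79, SE 0.06, adjusted p = 7.64e-15). Tnmd, a membrane protein of tendon cells, was at 4.91, 5.58 and 4.82 CPM in Con and at 9.55, 7.80 and 10.3 CPM in EX (0.85, SE 0.13, adjusted p = 1.40e-06). The sum of the tendon markers was higher in EX as that of the fibrillar collagens was, and its part in the collagen values was not tested. Of 12 fibroblast markers, 0 passed the edgeR, DESeq2 or limma test, 2 were higher and 1 was lower at an unadjusted p-value under 0.05, and Tcf21 had 1, 0 and 1 counts in Con and 0 in each EX library, under the floor in both groups. Their sum was 1316 to 1384 CPM in Con and 1324 to 1338 CPM in EX. All 6 adipocyte markers (4 with DESeq2) and 6 of 10 macrophage markers were higher in EX, against the same 6.04%, with sums of 14.02 to 15.3 against 34.7 to 39.1 CPM and 44.2 to 49.0 against 78.9 to 86.5 CPM.

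**Figure D5:**
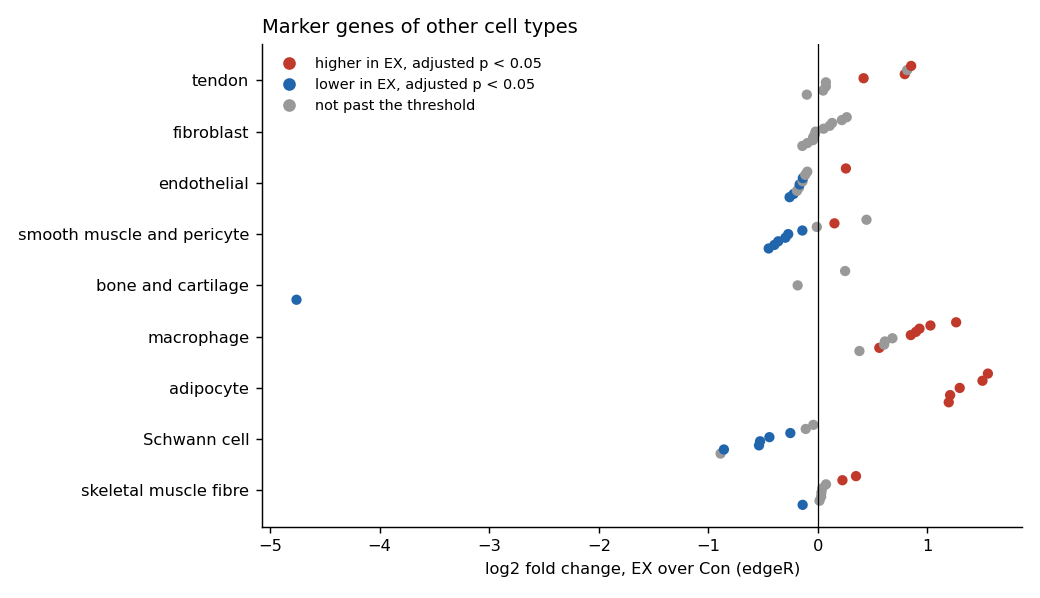
Log2 fold change of EX over Con (horizontal axis, edgeR) of marker genes with at least 30 counts in all, 1 row of points for each cell type, coloured by the adjusted p-value under 0.05. The 11 fibroblast markers shown are not called, smooth muscle and pericyte markers lie mostly left of 0, and adipocyte and macrophage markers lie to the right.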

How the data were processed

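Total RNA of hind leg muscle from 3 Con and 3 EX mice was sequenced by the authors as paired 150 bp reads on the DNBseq platform. The study's methods describe read filtering and matching to GRCm39 with HISAT, and the submitters' processing notes name cutadapt, featureCounts, MultiQC and GRCm38.p6 without a role. The authors deposited an estimated count per gene and library, not normalized, together with their FPKM and TPM values. In each library 4.18% to 4.44% of the estimated counts were not whole. The 6 columns of group means were not used.

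Counts were rounded to whole numbers and fitted over all 16759 genes with edgeR 4.0.16 (TMM, glmQLFit, glmQLFTest) in R 4.3.3 with no filter, and p-values were adjusted by the Benjamini-Hochberg method over all genes. The standard error was taken as the size of the log2 fold change over the square root of its F. FPKM values were used as deposited, with no TMM scaling added, and EX to Con folds from them run slightly lower. The median log2 fold change of all genes was -0.046 with limma on log2(FPKM + 0.1), against -0.0026 in the main fit. The reason was not tested. No gene positions are in the table, and promoters and gene order came from RefSeq tables for GRCm38.p6. The sources name no batch, and p-values measure the spread between these libraries. An exact permutation test of 3 against 3 cannot go below 0.1, so none is given. The test was checked on simulated data.

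Every collagen gene was named, with full statistics for those past the threshold and those past 1.5-fold with at least 30 counts in all. Pathway genes past the threshold were named, with values for the 3 largest changes each way, and marker lists were summarised with up to 4 examples. The members and lists were chosen with earlier results of these data known. Alternatives were RLE scaling, totals without the 20 most abundant genes, a filter at a mean of 1 FPKM, DESeq2 1.42.0, limma 3.58.1 on log2(FPKM + 0.1), log2(FPKM + 1) and log2(TPM + 0.1), a replicate block, and each library left out in turn. Fold changes from limma are on the log2(value + pseudocount) scale and understate low genes. Libraries of one group differed by more than counting noise, with a chi-square per degree of freedom of 1.71 to 3.79 over pairs.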

Additional observations from a re-analysis of the deposited data

How the results depend on the processing

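Of the 18 called collagens, Col1a1, Col1a2, Col3a1, Col5a1, Col5a2, Col11a2 and Col2a1 were called in each of 14 alternatives that gave them a value, and none of the 18 changed direction. Col2a1 did not enter the fit with the 1 FPKM filter. The collagens higher in EX, 14 with edgeR, were 9 with DESeq2, 8 with limma on log2(FPKM + 0.1), 7 on log2(FPKM + 1), 6 on log2(TPM + 0.1), and 10 to 14 with 1 library left out. The collagens lower, 4 with edgeR, were 1 with the filter, which admits 20 collagens, 2 with DESeq2, 2 with limma on either FPKM scale, and 1 to 3 with 1 library left out (1 without EX replicate 1). Col10a1 and Col20a1 were thus lost in most settings. Same-numbered libraries did not deviate together (correlations -0.105, -0.0368 and 0.0181), and differently numbered pairs ran from -0.125 to 0.14. With 3 libraries per group, these values cannot tell whether the titles' numbers pair the mice. The fit with the replicate block gave 14 collagens higher and 2 lower, and 929 and 927 of all genes. Pathway genes higher, 7 with edgeR, were 2 with limma on either FPKM scale, 1 on TPM and 5 to 6 with 1 library left out, and those lower, 2 with edgeR, were 4 with totals without the top 20 genes, 0 with DESeq2, 5 on TPM, and 0 to 2 with 1 library left out. Over all genes, 1012 higher and 993 lower became 628 and 546 with DESeq2, 354 and 762 with limma on log2(FPKM + 0.1), 359 and 746 on log2(FPKM + 1), 315 and 1183 on TPM, 798 and 1252 with totals without the top 20 genes, and 605 to 909 and 496 to 840 with 1 library left out (605 without EX replicate 3, 627 without EX replicate 1, with lower genes at 496 without EX replicate 1, 529 without EX replicate 3 and 578 without EX replicate 2). The median of all genes moved to -0.08 on TPM, and the split of collagen calls there was 6 higher and 4 lower. A further 2 collagens passed in some settings, Col22a1 with RLE scaling, with the filter and without Con replicate 3, and Col4a1, lower on TPM. Uncalled collagens changed sign in 27 fits over 10 genes. DESeq2 gave 5 collagens no adjusted p-value. The cause of these differences was not tested. Among the 24 collagens under 1 FPKM, standard errors of uncalled genes reached 1.45 on the log2 scale, against 0.14 between 1 and 10 FPKM.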
